A study of Saccharomyces cerevisiae with 3 samples.

Results

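The genes described here encode the translation elongation factors of the cytosol in budding yeast, Saccharomyces cerevisiae. They were taken as a list of 9 open reading frames (ORFs) out of 6207 in the deposited table: EFT1 (YOR133W) and EFT2 (YDR385W) for eEF2, TEF1 (YPR080W) and TEF2 (YBR118W) for eEF1A, CAM1 (YPL048W), TEF4 (YKL081W) and EFB1 (YAL003W) for eEF1B, and YEF3 (YLR249W) and HEF3 (YNL014W) for eEF3. All 9 have a row in the table, 7 have a value on each of the 3 arrays, HEF3 has a value on arrays 1 and 2, and EFB1 has no value on any array. The list was drawn up after EFT1 and EFT2 had been seen at the top of these arrays, so the values below are a description, and counts of called ORFs are given only as the background of the whole table.

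Elongation factors carry the ribosome through each codon. eEF1A brings the aminoacyl-tRNA as a complex with GTP, eEF1B reloads eEF1A with GTP, and eEF2 moves the tRNAs and the mRNA along after the peptide bond has formed. eEF3 is an ATPase characteristic of fungi that helps the spent tRNA leave the ribosome. The transcripts of these factors are among the abundant ones of growing yeast cells and are usually counted with those of the ribosomal proteins.

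Total RNA was compared on 2-colour arrays between cells treated for 2 h with caspofungin at 15 ng/ml, a drug that inhibits the synthesis of wall glucan, and an untreated portion of the culture, both grown in YEPD medium at 24 °C. Treated and untreated cells carried the same chimeric sensor, named MID2extWSC1cyt for the extracellular part of Mid2 and the cytoplasmic part of Wsc1, in the BY4741 background. Neither the expression of the chimera nor the number of clones is given in the labels, and the parental strain was not analysed here. The arrays are numbered 1, 2 and 4 as in their titles and come from 2 cultures. Whether array 1 shares its culture with array 2 or array 4 is not stated.

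Values are log2 ratios as the authors deposited them. RNA from treated cells was labelled with Cy3 for array 1 and with Cy5 for arrays 2 and 4. The labels do not give the direction of the ratio. Array 1 correlated positively with array 2 (Pearson's r = 0.436 over 2818 ORFs, across genes, which are not independent) and with array 4 (r = 0.394 over 745 ORFs), and it was taken as already turned to their direction. Under that reading the dye-balanced value, the mean of array 1 and of the average of arrays 2 and 4, is the caspofungin effect. If instead each array was deposited as Cy5 over Cy3, the same number would be a dye effect of the gene. Whether a positive value means more transcript with caspofungin is therefore not settled, and signs are those of the deposited scale. A ratio is relative to the other labelled RNA, and fewer cells with a transcript and less transcript per cell cannot be told apart.

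The arrays differed in coverage and in width. Values were present for 3748, 2833 and 855 ORFs on arrays 1, 2 and 4, their medians were −0.24, −0.14 and −0.93, and their SDs were 0.809, 0.436 and 1.55. With so few arrays the precision is low. Array 4 stands apart in both respects, so results that rest on it are given with and without it. On the markers of the strain, 4 of 6 a-specific genes and 0 of 4 alpha-specific genes had a value on array 1, and BY4741 is an a strain. Of the 4 genes deleted in BY4741, 2 (HIS3 and LEU2) had values on arrays 1 and 2, and the labels do not say whether a marker was restored with the chimera. MID2 had no value on any array, and SLG1 (WSC1) had −0.34 and −0.19 on arrays 1 and 2, which does not check the chimera.

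eEF2 is a GTPase whose diphthamide residue is the target of diphtheria toxin. Its genes EFT1 and EFT2 encode the same protein, and hybridization cannot separate their transcripts, so the pair is a single observation made on 2 spots. EFT1 had log2 values of 3.51, 3.22 and 2.17 on arrays 1, 2 and 4, which are ratios of 11.4, 9.35 and 4.50. EFT2 had 3.53, 3.29 and 1.37, which are ratios of 11.5, 9.77 and 2.59. Each of the 6 values was above the median of its array, and the values of array 4 were the lowest for both genes. EFT2 ranked 2 and EFT1 ranked 3 of 3748 ORFs on array 1, where only HAC1, the transcription factor gene of the unfolded protein response, was higher at 4.07 (named after its values were seen). On array 2 EFT2 ranked 1 and EFT1 ranked 2 of 2833, and on array 4 EFT1 ranked 21 and EFT2 ranked 37 of 855. The dye-balanced value was 3.10 for EFT1, with an SD of 0.71 over the 3 arrays, and 2.93 for EFT2, with an SD of 1.18.

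The spots of EFT1 and EFT2 show how far the readings of near-identical sequences lie apart. They differed by 0.013 on array 1, by 0.064 on array 2 and by 0.80 on array 4. The difference on array 4 was 0.51 times the SD of that array, while those on arrays 1 and 2 were 0.017 and 0.15 times theirs. The lower place of EFT2 than EFT1 in the dye-balanced values thus comes from array 4 alone. Without array 4 the values were 3.37 for EFT1 and 3.41 for EFT2.

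**Figure D1:**
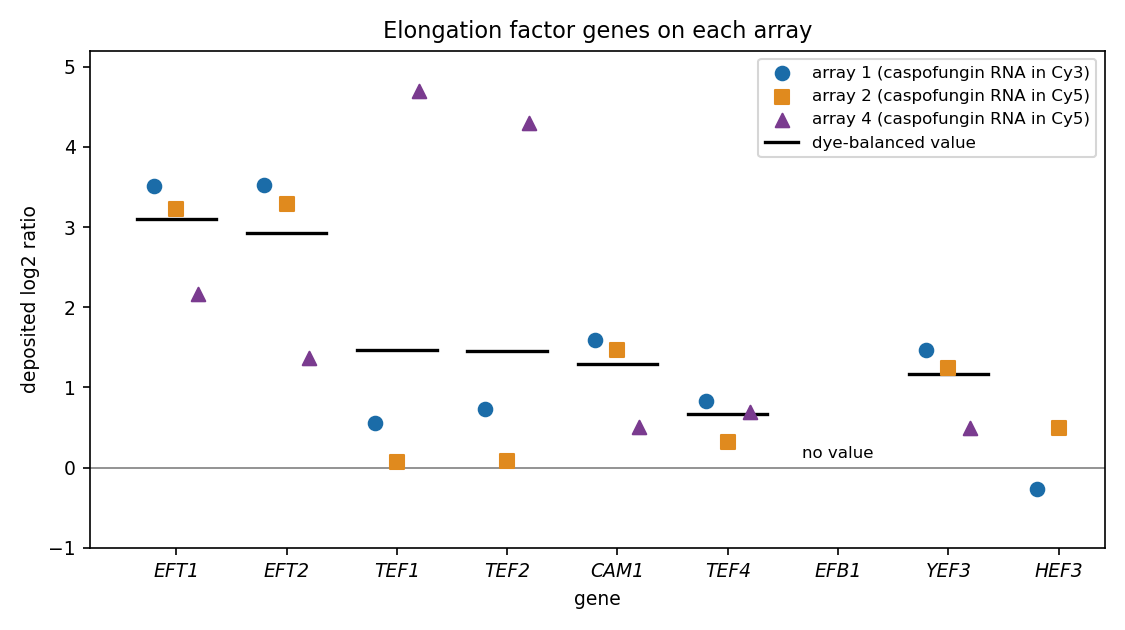
Deposited log2 ratio of each elongation factor gene on array 1 (circles), array 2 (squares) and array 4 (triangles), with the dye-balanced value as a black bar. EFT1 and EFT2 sit between 1.37 and 3.53 on every array, TEF1 and TEF2 exceed 4 on array 4 and lie below 0.74 on the others, and EFB1 has no value.

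eEF1A is one of the most abundant proteins of the yeast cell, and its genes TEF1 and TEF2 also encode a single protein. TEF1 had log2 values of 0.55, 0.07 and 4.69 on arrays 1, 2 and 4, which are ratios of 1.47, 1.05 and 25.8. TEF2 had 0.73, 0.08 and 4.30, which are ratios of 1.66, 1.06 and 19.7. Both genes were thus close to a ratio of 1 on array 2, slightly above it on array 1, and near the top of array 4. TEF1 ranked 521 of 3748 on array 1 and 734 of 2833 on array 2, but 3 of 855 on array 4. TEF2 ranked 353, 721 and 5 on the same arrays. The spots of the pair differed by 0.18, 0.006 and 0.40 on arrays 1, 2 and 4, so the high value of array 4 was read on both.

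The dye-balanced values of TEF1 and TEF2, 1.47 and 1.46, are carried by array 4. The SDs over the 3 arrays were 2.54 and 2.27, larger than the values themselves, and without array 4 the values were 0.31 for TEF1 and 0.41 for TEF2. The dye orientation is the same on arrays 2 and 4, whose RNA is from different cultures, and TEF1 differed between them by 4.62, the whole range of its values. eEF1A and eEF2 therefore stood in opposite order on the arrays. The mean of the eEF2 genes was above that of the eEF1A genes by 2.87 on array 1 and by 3.18 on array 2, and on array 4 the difference was −2.72.

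**Figure D2:**
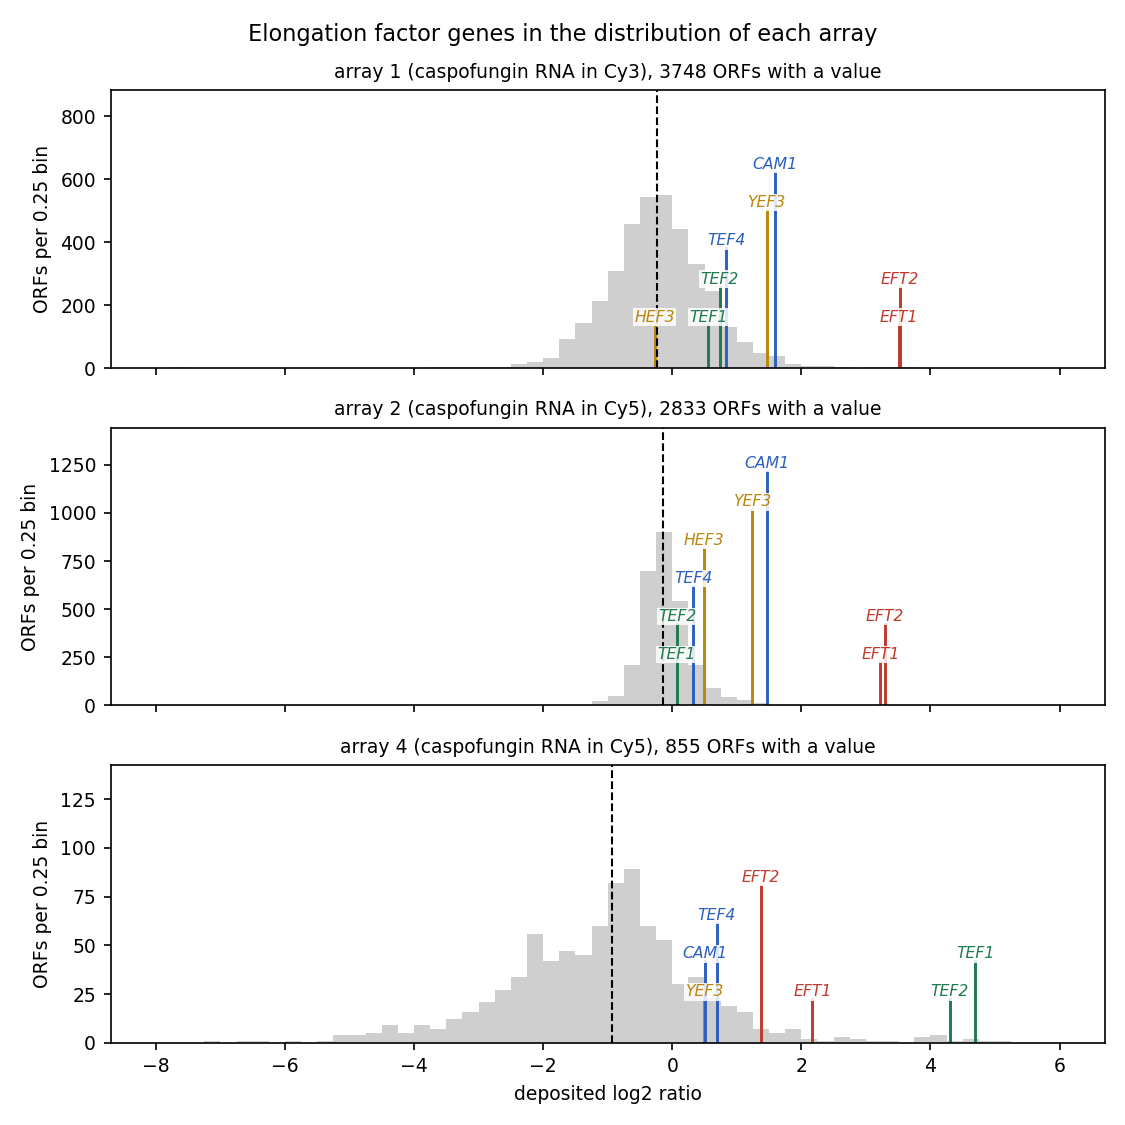
Number of ORFs by deposited log2 ratio (bins of 0.25) on arrays 1, 2 and 4, with the median as a dashed line and each elongation factor gene as a coloured line, whose height has no meaning. EFT1 and EFT2 lie at the upper end of arrays 1 and 2, and TEF1 and TEF2 at the upper end of array 4.

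eEF1B, the exchange factor of eEF1A, has a catalytic alpha subunit, encoded by EFB1, and a gamma subunit, encoded by CAM1 and TEF4. CAM1 had log2 values of 1.59, 1.47 and 0.51 on arrays 1, 2 and 4, a dye-balanced value of 1.29 and an SD of 0.59. It ranked 55 of 3748, 24 of 2833 and 98 of 855. TEF4 had 0.84, 0.32 and 0.69, a dye-balanced value of 0.67 and an SD of 0.26, the smallest SD among the 7 genes with a value on all arrays. Both gamma subunit genes were positive on each array, with CAM1 above TEF4 by 0.76 on array 1 and by 1.15 on array 2, and a difference of −0.18 on array 4. On array 2 that gap was 2.63 times the SD of the array. The subunit that carries the exchange activity cannot be placed, since EFB1 had only empty cells.

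eEF3 is encoded by YEF3, the copy used in growing cells, and by HEF3, a close paralogue that is hardly expressed under usual growth conditions. YEF3 had log2 values of 1.46, 1.24 and 0.50 on arrays 1, 2 and 4, a dye-balanced value of 1.17 and an SD of 0.51. Its ranks were 82 of 3748, 35 of 2833 and 101 of 855. HEF3 had −0.27 on array 1 and 0.49 on array 2, which puts it near the middle of array 1, above 48.0% of ORFs, and above 93.0% of ORFs on array 2. HEF3 was the only member with values of both signs, and YEF3 was above it by 1.73 on array 1 and by 0.75 on array 2. Cross-hybridization between the 2 paralogues was not tested.

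CAM1 and YEF3, which belong to different factors, had nearly the same values. Their distance, the root of the summed squared differences over the 3 arrays, was 0.26. None of the 716 other ORFs outside the list was as close to CAM1, the nearest being at 0.55. By comparison the distance between EFT1 and EFT2 was 0.80 and that between TEF1 and TEF2 was 0.43. This pair was chosen after its values were seen, and likeness over 3 arrays is a description only.

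In order of dye-balanced value the 7 genes were EFT1, EFT2, TEF1, TEF2, CAM1, YEF3 and TEF4. The gaps between TEF1, TEF2, CAM1 and YEF3, which ran from 1.47 to 1.17, were smaller than the SD of any of these genes. Without array 4 the order was EFT2, EFT1, CAM1, YEF3, TEF4, TEF2 and TEF1, so the eEF1A genes moved to the end. The eEF2 genes came first in both orders. With array 1 left out, EFT1 at 2.70 was highest, and TEF1 at 2.38 lay above EFT2 at 2.33. These are plain means of arrays 2 and 4, which have 1 dye orientation, and so are not dye-balanced. With array 2 left out, the means of arrays 1 and 4, which have opposite dye orientations, were 2.84 for EFT1 and 2.45 for EFT2. They were 2.62 for TEF1 and 2.52 for TEF2, so EFT1 was again highest and EFT2 lay below both eEF1A genes.

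**Figure D3:**
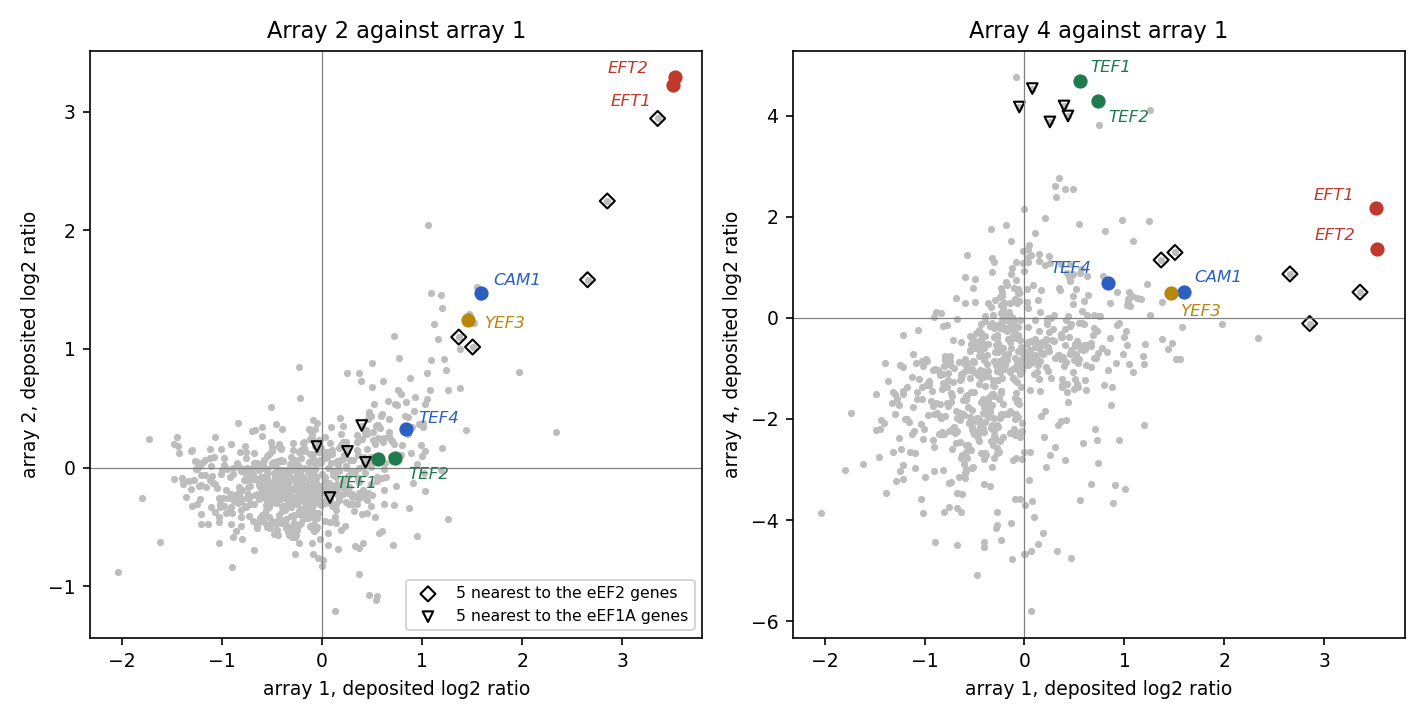
Deposited log2 ratios of array 2 (left) and array 4 (right) against array 1 for the 723 ORFs with a value on all arrays (grey), with the elongation factor genes in colour and the ORFs nearest to the eEF2 genes (diamonds) and to the eEF1A genes (triangles) outlined. EFT1 and EFT2 are at the upper right on the left, and TEF1 and TEF2 are at the top of the right panel at a small value of array 1.

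As a group, 6 of the 7 genes had a dye-balanced value of at least 2-fold and 1 sign on all arrays, and all 6 were positive. Of the 723 ORFs that all 3 arrays measured, 95 did so, or 13.1%, and 20 in the positive direction, or 2.77%. All 7 were positive on each array, against 7.61% of the 723 ORFs. The genes were picked from this comparison, so nothing is read from these shares. The median dye-balanced value was 1.46 for the 7 genes and −0.36 for all 723 ORFs. In a limma fit of the 723 ORFs 2 of them, 0.277%, had a Benjamini-Hochberg adjusted p under 0.05. They were the spots of EFT1 and EFT2, the single observation from which the list was drawn, so the call restates that choice. With arrays 1 and 2 averaged as 1 culture the fit called 0 ORFs, and with arrays 1 and 4 averaged it called 12. With each identical pair counted once, as the mean of its 2 spots, 4 of 5 products remained at 2-fold or more, with a median of 1.29. The share to set beside this is the 2.77% of ORFs above, in which similar copies were counted singly. Without array 4, where HEF3 could be included, 4 of 8 genes reached 2-fold with 1 sign, against 3.69% of 2818 ORFs, and these were EFT1, EFT2, CAM1 and YEF3.

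The members reaching 2-fold changed with the array. On array 1 they were EFT1, EFT2, CAM1 and YEF3, 4 of 8 genes beside 5.47% of all ORFs. The same 4 genes reached it on array 2, where 2.12% of ORFs did. On array 4 the 4 were EFT1, EFT2, TEF1 and TEF2, 4 of 7 genes beside 6.67% of ORFs. Among the members only the eEF2 genes were in this group on all 3 arrays. Outside the list VAS1, with 1.51, 1.02 and 1.29 on arrays 1, 2 and 4, and PGI1, with 1.37, 1.10 and 1.15, also were.

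Each gene also has a dye term, given as the average of arrays 2 and 4 minus array 1, divided by 2. It was −0.41 for EFT1, −0.60 for EFT2, −0.30 for CAM1, −0.30 for YEF3 and −0.17 for TEF4. For TEF1 and TEF2 it was 0.91 and 0.73, which ranked 5 and 8 from the top among the 723 ORFs. If the deposited ratios had Cy5 above Cy3 throughout, these numbers and not the dye-balanced values would be the caspofungin effect. The eEF2 genes would then be negative, with EFT1 at rank 534 and EFT2 at rank 638 of the 723 ORFs, whose median would be −0.19. The eEF1A genes would be positive, again through array 4. With the sign of array 1 turned in this way, 0 of the 7 genes had 2-fold or more with 1 sign on all arrays, beside 1.8% of the 723 ORFs.

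**Figure D4:**
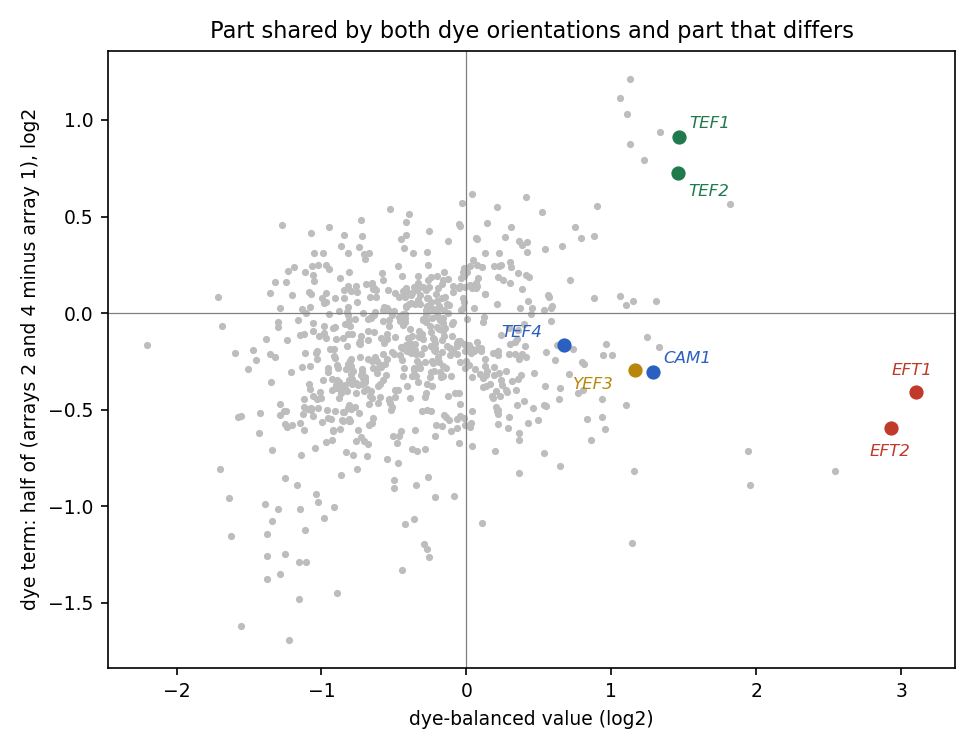
Dye-balanced value (horizontal) and dye term (vertical), both log2, of the 723 ORFs with a value on all arrays, with the 7 elongation factor genes in colour. EFT1 and EFT2 have the largest dye-balanced values, 3.10 and 2.93, with dye terms of −0.41 and −0.60, while TEF1 and TEF2 have dye terms of 0.91 and 0.73.

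Genes that act on the elongation factors or resemble them were mostly measured on arrays 1 and 2. Of 32 such genes in 7 lists, 31 were in the table, 22 had values on arrays 1 and 2, and 4 had a value on array 4. Among the 22, 6 were positive on both arrays, 10 were negative on both and 6 had opposite signs. The share positive on both was 27.3%, beside 20.5% of all 2818 ORFs and 7 of the 8 elongation factor genes, and the share negative on both was 45.5%, beside 47.1% of all ORFs. With the sign of array 1 turned, 1 of the 22, 12.9% of all ORFs and 1 of the 8 elongation factor genes, HEF3, were positive on both. None of the 22 had a mean of 2-fold or more over arrays 1 and 2, and their median mean was −0.02, beside −0.18 for all ORFs. Over the same arrays TEF1, TEF2, TEF4 and HEF3 had means of 0.31, 0.41, 0.58 and 0.11, and the highest mean of the 22 was 0.82.

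Of the enzymes that make diphthamide on eEF2, 5 had values on arrays 1 and 2. DPH2 was positive on both, with 0.79 and 0.85, 3 genes were negative on both and 1 had opposite signs (median −0.17). Among the lysine methyltransferases of the elongation factors 4 of 5 were negative on both arrays, beside 47.1% of all ORFs, with a median of −0.30, and EFM2 had 0.19 and 0.03. EFM6, measured on array 1 alone, had −1.56. Of the GTPases related to eEF1A or eEF2, SUP35, the release factor eRF3, had 1.02 and 0.61, and HBS1, which acts on stalled ribosomes, had 0.59 and −0.30. ARB1, an ATPase of the eEF3 class that works in ribosome biogenesis, had 0.92 and 0.23, while NEW1 and GCN20 of that class had no value. ZPR1, a chaperone of eEF1A, had 1.00 and 0.18. The mitochondrial factors MEF1, TUF1 and GUF1 had 1.03 and 0.36, 0.34 and −0.18, and −0.37 and −0.17.

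The genes of these lists with a value on all 3 arrays were HYP2, ANB1, LIA1 and STM1. HYP2 and ANB1 encode eIF5A, which assists elongation through difficult peptide bonds, and are closely similar copies. HYP2 had −0.30, −0.25 and 0.35 on arrays 1, 2 and 4, and ANB1 had −0.05, −0.50 and 0.51. LIA1, for an enzyme that forms hypusine on eIF5A, had −0.12, 0.12 and −0.37. STM1, for a protein that binds ribosomes together with eEF2, had 0.21, −0.22 and 1.97, and so was high on array 4 alone. No gene of the 4 had 1 sign on all arrays.

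The ORFs with values most like those of the eEF2 genes were ADE57, PMA1, PFK2, VAS1 and PGI1, at distances of 1.31 to 3.11 over the 3 arrays. Even the nearest, ADE57 for an enzyme of purine synthesis, was farther from the eEF2 mean than EFT1 and EFT2 were from each other. ADE57 had 3.36, 2.94 and 0.51 on arrays 1, 2 and 4. PMA1, which pumps protons out of the cell, had 2.65, 1.58 and 0.87, and PFK2, a subunit of phosphofructokinase, had 2.85, 2.25 and −0.11. These ORFs were lower on array 4 than on array 1, as the eEF2 genes were. They were picked for that likeness, and the median of the measured ORFs was also lower on array 4, −0.93 beside −0.24 on array 1.

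The ORFs most like the eEF1A genes were closer, at distances of 0.48 to 0.77. They were ADH2, RPL3, TDH2, ENO2 and TDH1, of which 4 encode enzymes of sugar or alcohol metabolism and RPL3 encodes a ribosomal protein. Cross-hybridization of these ORFs with similar genes, such as between TDH1 and TDH2, was not tested, so they may not be separate observations. Their values on array 4 lay between 3.88 and 4.54, and on arrays 1 and 2 between −0.25 and 0.43. ADH2 had 0.40, 0.35 and 4.19, and RPL3 had 0.43, 0.04 and 4.00. These ORFs were picked by their distance to the eEF1A genes. High values on array 4 and values near 0 on the other arrays therefore follow from the choice.

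The length of the gene moved with the values of the arrays. Spearman's rho between value and gene length was 0.347 on array 1 (3598 ORFs), 0.392 on array 2 (2729 ORFs) and 0.047 on array 4 (810 ORFs), across genes. EFT1 and EFT2 span 2529 bp, longer than 86.2% of the genes, YEF3 and HEF3 span 3135 bp, TEF1 and TEF2 1377 bp and CAM1 1248 bp. The part of length in the values was not tested. With a smooth length trend removed from each array the values were 3.40 for EFT1, 3.22 for EFT2, 1.63 for TEF1 and 1.62 for TEF2. They were 1.59 for YEF3, 1.49 for CAM1 and 0.81 for TEF4. The median of the 681 ORFs in that fit was 0.13, beside −0.36 for the 723 ORFs with the trend left in. The median of the 7 genes rose less, from 1.46 to 1.62. It thus lay closer to the median of all ORFs once the trend was removed, although each of the 7 values was higher.

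The genes beside the eEF2 and eEF1A genes on the chromosome had values of at most 0.13 on each array that measured them. The ORF before EFT1, VPS17, had −0.10 and −0.09 on arrays 1 and 2, and the one after it, BAG7, had −0.76 on array 1. ATO3, beside EFT2, had −0.76, 0.13 and −3.75 on arrays 1, 2 and 4. MRL1 and GRS2, on either side of TEF1, had −0.84 and −0.06, and −0.37 and −0.05, on arrays 1 and 2. Beside the other members some neighbours were higher. DIG1, beside CAM1, had 0.97 and 0.57 on arrays 1 and 2, and SGF11 on its other side had −1.24 on array 1. RRP14, beside TEF4, had 1.14 and −0.33, and RCK2, beside YEF3, had 0.55 and −0.27. SSA1, the chaperone gene beside EFB1, had a value on array 4 alone, 3.11. TEF4 and EFB1 each hold a small nucleolar RNA in their intron, SNR38 and SNR18, neither of which has a row in the table.

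**Figure D5:**
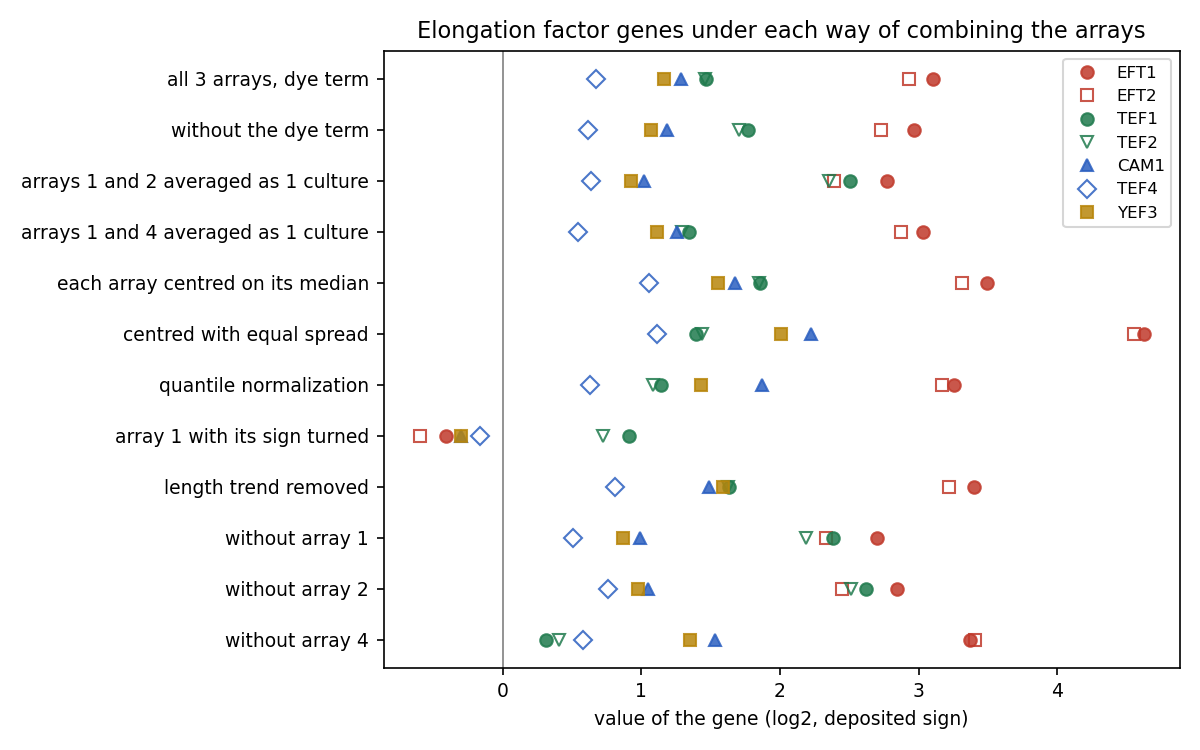
Value of each of the 7 elongation factor genes (log2, deposited sign) under the dye-balanced fit of all arrays and under 11 other ways of combining or scaling the arrays. EFT1 and EFT2 stay above 2.3 except with the sign of array 1 turned, where they are −0.41 and −0.60, and TEF1 and TEF2 run from 0.31 and 0.41 without array 4 to 2.62 and 2.52 without array 2.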

How the data were processed

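The authors deposited 1 log2 ratio per ORF and array, with 6207 ORFs and 2 control rows without values. The base of the logarithm was read from the numbers, since 2 raised to any of them was a whole number of steps of 0.0001 (tolerance 0.01 of 1 step) for 100% of them on each array. Background correction, normalization, scanner, ratio direction and the reason for empty cells remain unknown, as they were not given in the sources used here. Per the labels, 2 cultures were each hybridized with both dye orientations, 4 arrays in all, of which 3 were analysed here.

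Values were used as deposited. The dye-balanced value is the caspofungin coefficient of limma 3.58.1 (R 4.3.3) with a dye term, fitted to the 723 ORFs that all 3 arrays measured, with 1 residual degree of freedom and a common standard error of 0.73. The fit counts arrays of 1 culture as independent, which makes that error too small. Array 1 is the only array of its orientation, so the error comes from the difference between arrays 2 and 4 alone. The same error served every ORF, so the p-values follow the size of the dye-balanced value and not the spread of each gene. The fit was also run on simulated arrays that were independent and of equal noise. The arrays here are neither, so that run does not bear on the calls. Members, lists and the rule for named genes were chosen with earlier results of these data known. The rule named all members, list genes with a value on all arrays and the 5 nearest ORFs to each identical pair, by distance over the 3 arrays; list genes on arrays 1 and 2 only, neighbouring genes and HAC1 were named after their values were seen. Names, gene order and lengths came from RefSeq assembly R64, in which 5654 ORFs matched by locus tag and 57 by synonym. Lengths include introns. No sequence is shown, since no sequence table was used here.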

Additional observations from a re-analysis of the deposited data

How the results depend on the processing

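The 7 genes were positive in 10 of the 11 other ways of combining or scaling the arrays. With the sign of array 1 turned, EFT1 was −0.41, EFT2 −0.60, CAM1 −0.30, YEF3 −0.30 and TEF4 −0.17, with 0 of 7 genes at 2-fold and 1 sign (1.8% of ORFs) and a median of −0.30. There the dye term and the caspofungin term exchange by construction. The count was 6 genes, where 13.1% of ORFs met the same limits. It was 4 without array 1 (27.1%), 5 without array 2 (34.2%) and 4 of 8 without array 4 (3.69%). It was 7 after median centring (8.44%) or with equal spread as well (8.99%). With quantile normalization (19.2%) or arrays 1 and 2 averaged (32.2%) it was 5. At 1.5-fold it was 7 and at 3-fold it was 2 (EFT1 and EFT2). The share over all ORFs was not counted at either limit, so nothing is read from these 2 counts. The median of 1.46 was 1.70 without the dye term, 2.35 with arrays 1 and 2 averaged as 1 culture, 1.30 with arrays 1 and 4 averaged, 1.85 after median centring, 2.01 with equal spread as well, 1.62 with the length trend removed, 1.29 with identical pairs counted once (chosen after the values were seen) and 0.97 to 2.45 when an array was left out. The 0.97, without array 4, includes HEF3, and over the same 7 genes it was 1.35. Centring moved the median of all ORFs from −0.36 to 0.03, and removing the length trend moved it to 0.13. With the length trend removed, the median of all ORFs rose more than the median of the 7 genes. The 2 ORFs called by limma became 12 with arrays 1 and 4 averaged and 0 to 25 with an array left out, in fits of 2 arrays that have no dye term. These were 0 without array 1 or array 2 and 25 without array 4, where 2818 ORFs were fitted, or 11 over the same 723. They became 0 in 8 further settings, where the number with an unadjusted limma p below 0.05 was 40 (no dye term), 228 (quantile normalization), 61 (equal spread), 29 (median centring), 79 (arrays 1 and 2 as 1 culture), 21 (no length trend), 4 (array 1 turned) and 45 (ORFs on array 1 plus any other). Without array 1 and without array 2 it was 63 and 106. The cause of these differences was not tested. A planned comparison of spots over all genes of identical protein was not run, since no protein table was used here. No paired analysis was possible because all arrays belong to 1 group. The signal over background, which limits the precision of each ratio, is unknown.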
